A study of Mus musculus with 4 samples.

Results

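Collagen chain genes were taken as every gene of the deposited count tables whose symbol is Col, a number, the letter a and a number, which gave 44 of the 49997 genes in the tables. By the class of collagen they build, 11 encode chains of fibrillar collagens, 6 encode the chains of type IV collagen, the collagen of basement membranes, and 27 encode chains of other collagens. The RNA came from C57BL/6J mouse embryos, from cultured pieces of the AGM (aorta, gonad and mesonephros), where the blood stem cells of the body arise. The 2 untreated libraries came from explants kept for 48 hours on membrane filters in a blood progenitor medium with hydrocortisone. The 2 CCCP libraries came from explants kept in the same way with 5 µM CCCP for 48 hours. CCCP is a protonophore, which lets protons leak across the inner mitochondrial membrane. Both groups thus share the culture and the hormone, and the labels do not say how many embryos went into a library or whether replicates were separate cultures, so p-values measure the spread between these libraries, which may be technical. The labels differ on the stage, since the growth protocol names E10.5 and E11.5 (E for embryonic day) and the series design E10.5 alone. They also differ on the material, since stem cells are given as the cell type but explants as the source of the RNA.

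Collagen chains assemble into a helix of intertwined chains inside the endoplasmic reticulum, where prolines and lysines are hydroxylated first, and the molecule is then secreted, trimmed and crosslinked. Fibrillar collagens (types I, II, III, V and XI) form the ropes of connective tissue and are made mostly by mesenchymal cells. Type IV collagen forms the sheet under epithelia and endothelia, and type VI collagen forms beaded filaments around cells. In the AGM these matrices surround the dorsal aorta, the mesonephric tubules and the gonad ridge.

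Untreated replicates 1 and 2 held 48216849 and 37360968 counted reads, and CCCP replicates 1 and 2 held 48827826 and 37579087. Levels are given as CPM, counts scaled to library size with TMM factors, and levels of different genes are compared as CPM per kilobase of exon. A floor of 3 counts corresponds to between 0.0599 and 0.0826 CPM and covers counting error only. Kit, which marks blood stem and progenitor cells, stood between 47.6 and 63.2 CPM, Ptprc, the pan-leukocyte surface protein, between 3.39 and 6.85 CPM, and the blood transcription factor Gfi1 between 0.107 and 0.247 CPM. The mesenchymal marker list of 10 genes summed to between 782 and 914 CPM, against between 84.7 and 120 CPM for the 8 blood markers. In these bulk libraries fewer cells of a type and less RNA per cell cannot be told apart.

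Collagen transcripts took 0.974% and 0.609% of all counts in untreated replicates 1 and 2 and 0.823% and 0.641% in CCCP replicates 1 and 2. Replicate 1 held the larger share in each group, and the groups overlapped. The fibrillar chains alone took 0.617% and 0.338% untreated against 0.487% and 0.368% under CCCP. The type IV chains took 0.150% and 0.136% against 0.162% and 0.131%. The remaining chains took 0.207% and 0.136% against 0.174% and 0.141%. Per kilobase, Col3a1, the chain of type III collagen, stood highest, with a mean of 318 CPM per kilobase over the 4 libraries. Col1a2 and Col1a1, the chains of type I collagen, followed at 201 and 114 CPM per kilobase, then Col4a1 and Col4a2 of type IV at 96.2 and 93.0, and Col18a1 and Col26a1 at 56.9 and 55.1 CPM per kilobase. The chain tested with the lowest mean by this measure was Col6a5, one of the type VI chains, between 0.0118 and 0.0640 CPM per kilobase. Col10a1, the collagen of hypertrophic cartilage, held 4, 0, 4 and 0 counts and was the one chain gene that failed the filter on low counts, which left 43 tested.

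**Figure D1:**
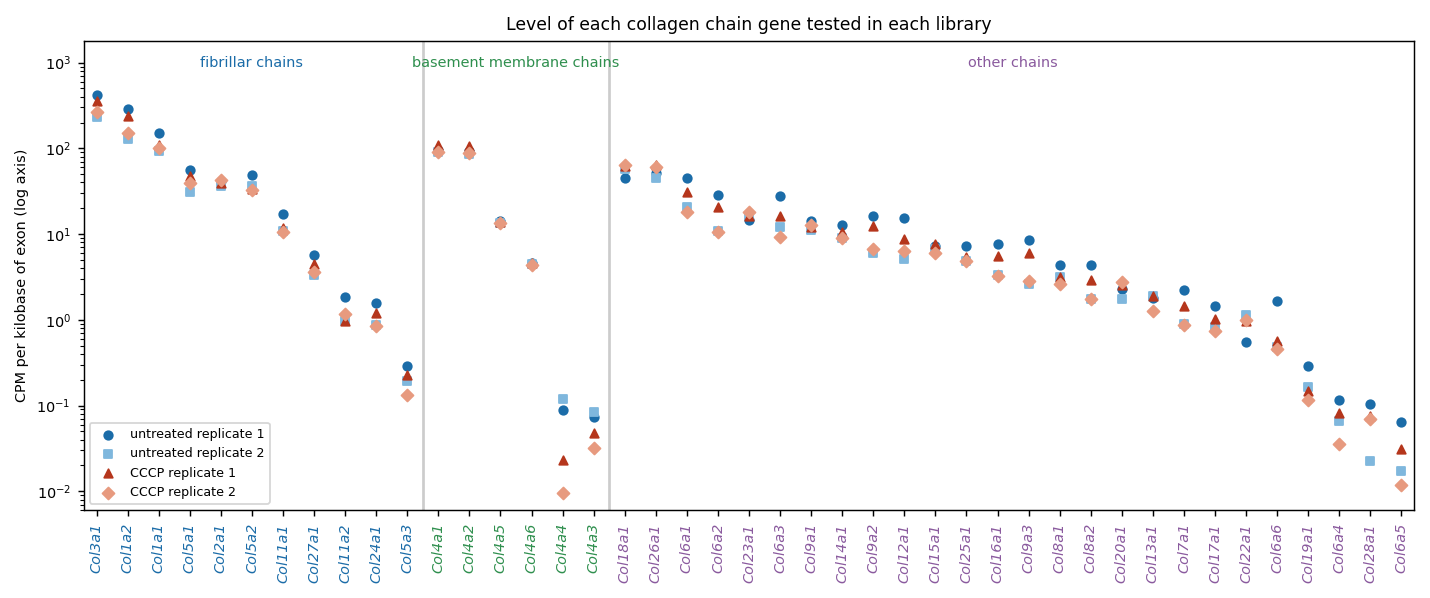
CPM per kilobase of exon (log axis) of the 43 collagen chain genes tested, in each of the 4 libraries, by class and in order of the mean. Col3a1 leads at a mean of 318 CPM per kilobase. In most fibrillar and other chains the point of untreated replicate 1 is the highest of the 4.

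The bases just upstream of the start site are shown for 5 chains on which the results below turn: the top fibrillar chains Col3a1 and Col1a2, the type VI chains Col6a1 and Col6a3, which differed by replicate number, and Col18a1, for which both CCCP libraries stood above both untreated ones. This choice was made after the values were seen. Sequences are from RefSeq on mm10, read 5′ to 3′ along the strand of the gene and ending at the base before the annotated start. Capitals mark a CCAAT box (CCAAT or ATTGG), a GC box (GGGCGG or CCGCCC) or a TATA box (TATAAA or TTTATA), letters searched on both strands.
Col3a1, chr1:45311288-45311537, plus strand: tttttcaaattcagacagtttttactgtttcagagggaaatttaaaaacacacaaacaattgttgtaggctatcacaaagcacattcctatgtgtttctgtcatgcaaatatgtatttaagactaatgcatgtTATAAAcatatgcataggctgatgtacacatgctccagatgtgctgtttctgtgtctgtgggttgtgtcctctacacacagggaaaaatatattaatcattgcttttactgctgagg
Col1a2, chr6:4505368-4505617, plus strand: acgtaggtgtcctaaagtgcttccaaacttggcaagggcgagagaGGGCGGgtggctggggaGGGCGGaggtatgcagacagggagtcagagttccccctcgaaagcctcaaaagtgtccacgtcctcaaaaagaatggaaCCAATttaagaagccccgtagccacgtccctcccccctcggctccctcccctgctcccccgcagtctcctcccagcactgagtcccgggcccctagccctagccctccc
Col6a1, chr10:76726045-76726294, minus strand: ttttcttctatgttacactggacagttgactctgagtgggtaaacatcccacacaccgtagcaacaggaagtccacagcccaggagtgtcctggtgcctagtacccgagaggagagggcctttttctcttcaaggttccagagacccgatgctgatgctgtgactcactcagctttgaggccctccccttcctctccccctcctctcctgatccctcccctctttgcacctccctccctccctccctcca
Col6a3, chr1:90844002-90844221, minus strand: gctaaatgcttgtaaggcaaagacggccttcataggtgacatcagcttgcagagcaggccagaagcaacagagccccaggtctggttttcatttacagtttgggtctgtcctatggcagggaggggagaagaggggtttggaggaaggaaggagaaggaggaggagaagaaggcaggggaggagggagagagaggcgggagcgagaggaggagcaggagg
Col18a1, chr10:77166531-77166780, minus strand: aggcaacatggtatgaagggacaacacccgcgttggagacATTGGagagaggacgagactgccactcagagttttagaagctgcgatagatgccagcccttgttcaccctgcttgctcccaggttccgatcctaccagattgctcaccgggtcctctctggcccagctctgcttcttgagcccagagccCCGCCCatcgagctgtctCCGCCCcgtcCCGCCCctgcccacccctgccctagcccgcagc

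The window of Col3a1 holds 1 TATA match and no match to the other motifs. The window of Col1a2 holds 1 CCAAT match and 2 GC boxes, and that of Col18a1 holds 1 CCAAT match and 3 GC boxes. The windows of Col6a1 and Col6a3 hold no match to these letters. The stretch printed for Col6a3 is 220 bases, since bases inside an annotated exon were left out. The RefSeq table had windows for 35 of the 44 genes, 38 windows of 250 bases in all, and the shares below use these whole windows. A GC box was found in 57.9% of these windows and in 32.7% of all 32851 windows in the table. A CCAAT box was found in 34.2% against 33.8%, and a TATA box in 13.2% against 12.4%. These are matches of letters, described without a test.

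CCCP was set against untreated by the quasi-likelihood test of edgeR, with p-values adjusted over all genes by the Benjamini-Hochberg method. At a threshold of 0.05, 0 of 43 collagen chains were called, beside 0 of 19837 genes in all (0%). The fit also called 0 of 11 liver marker genes, whose median log2 fold change was -4.52 (edgeR adjusted p from 0.133 to 0.229). A gene not called here is thus not shown to be unchanged. Adjusted p-values of the chains ran from 0.206 to 0.990. DESeq2, which gave no adjusted p for Col6a5, also called 0 of them, beside 3.32% of the genes it could adjust. Without a filter on low counts edgeR called 3 (Col4a4, Col6a3 and Col6a6), beside 3.43% of all genes. At an unadjusted p under 0.05, Col26a1 was the one chain on the higher side (5.45% of all genes) and Col4a4 the one on the lower side (9.16% of all genes). The log2 fold change was below 0 in 33 chains and above 0 in 10, beside 50.8% of all genes below 0, and its median was -0.25 against -0.01 over all genes. The fibrillar chains had a median of -0.19 (9 of 11 below 0), the type IV chains -0.03 (4 of 6) and the other chains -0.33 (20 of 26). This lean to the lower side was absent in the fit without untreated replicate 1. The median of all chains was then 0.16, with 33 above 0 (52.3% of all genes) and 10 below. The fibrillar and other medians were 0.20 and 0.16. That fit sets untreated replicate 2 alone against both CCCP replicates, and 33 of 43 chains were higher in replicate 1 in both groups. Within replicate number 2 the median log2 ratio of CCCP to untreated was -0.03. Without untreated replicate 2 the median of all chains was -0.53, without CCCP replicate 1 it was -0.40, and without CCCP replicate 2 it was -0.04. In each of these the lone library of a group was assumed to vary like the other group.

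**Figure D2:**
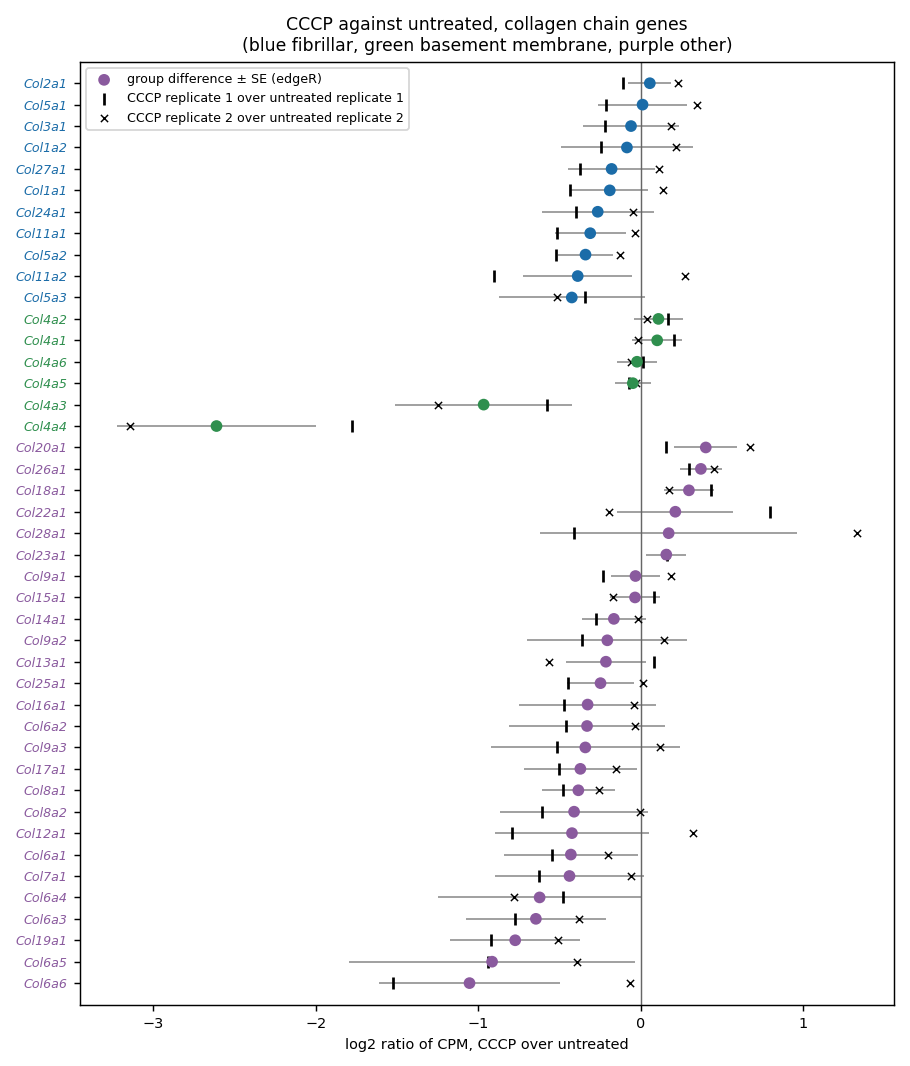
Log2 ratio of CPM, CCCP over untreated, for the 43 chains by class: the dot and line are the edgeR estimate and its SE, the bar is replicate 1 against replicate 1 and the cross replicate 2 against replicate 2. All 11 fibrillar bars lie left of 0, while 7 of the 11 crosses lie right of it.

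Among the fibrillar chains, Col3a1 (chr1:45311538-45349706), whose product accompanies type I collagen in soft tissues and vessel walls, stood at 2302 and 1305 CPM untreated and at 1973 and 1489 CPM under CCCP. Its 2 CCCP values lay between its 2 untreated values, and the log2 fold change was -0.06 with an SE of 0.298 (edgeR adjusted p = 0.943). Col1a2 (chr6:4505618-4541543) stood at 1493 and 670 CPM against 1261 and 780 CPM, with the same nesting of CCCP inside untreated and a log2 fold change of -0.08 (SE 0.405). Col1a1 (chr11:94936224-94953042), the other chain of type I collagen, stood at 887 and 550 CPM against 655 and 605 CPM, again nested, with a log2 fold change of -0.19 (SE 0.237, edgeR adjusted p = 0.728). Col5a1 (chr2:27886381-28039510), a chain of type V collagen, which starts and limits fibril growth, stood at 474 and 266 CPM against 409 and 338 CPM, with a log2 fold change of 0.01 (SE 0.276). For these 4 genes the untreated libraries thus lay farther apart than the groups. The untreated means and SDs were 1803 ± 705 CPM for Col3a1, 1082 ± 582 for Col1a2, 718 ± 238 for Col1a1 and 370 ± 147 for Col5a1 (SD, n = 2), against 1731 ± 342, 1020 ± 340, 630 ± 35.2 and 373 ± 49.6 CPM under CCCP. Removing the trend of fold change on exon length turned the sign of Col3a1 and Col1a2, to 0.06 and 0.02.

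The other 7 fibrillar chains had log2 fold changes between -0.42 (Col5a3) and 0.06 (Col2a1). Of all 11, Col5a2, the partner of Col5a1 in type V collagen, was the one whose groups did not overlap, beside 24.8% of all genes on the lower side. This gene was singled out after its values were seen. It stood at 321 and 239 CPM untreated and at 224 and 219 CPM under CCCP, a log2 fold change of -0.34 with an SE of 0.167 (edgeR adjusted p = 0.399). Col2a1, the collagen of cartilage and notochord, was also singled out, because its values were close in all libraries: 246 and 213 CPM untreated against 229 and 249 CPM. The 12 cartilage markers summed to 169 and 165 CPM untreated and 144 and 142 CPM under CCCP. Of the 8 tested, 1 had a log2 fold change above 0 and 7 below. The cartilage proteoglycan Acan, 1 marker of this list, stood at 3.55, 0.374, 0.124 and 0.303 CPM in the same order, high in untreated replicate 1 alone. The part of the cartilage markers in the collagen values was not tested.

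The type IV chains fall into gene pairs that share a start region, and the pairs differed in level. Col4a1 (chr8:11198423-11312889) and Col4a2 (chr8:11312805-11449287) build the network found in nearly all basement membranes. Col4a1 stood at 714 and 682 CPM untreated and 824 and 674 CPM under CCCP, a log2 fold change of 0.10 (SE 0.155, edgeR adjusted p = 0.782). Col4a2 stood at 603 and 551 CPM against 678 and 567 CPM, a log2 fold change of 0.11 (SE 0.151, edgeR adjusted p = 0.757). In both genes CCCP replicate 1 was highest and the groups overlapped, and with the trend on GC content removed both signs turned, to -0.06 and -0.07. Exons of Col4a1 share 1073 bases with genes of the opposite orientation, which unstranded counting cannot tell apart.

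Col4a5 (chrX:141475370-141689236), which joins the networks of kidney and smooth muscle basement membranes, varied little. It stood at 93.9 and 88.7 CPM untreated and at 89.6 and 87.1 CPM under CCCP, a log2 fold change of -0.05 (SE 0.110). Its neighbour Col4a6 (chrX:141165403-141474095) stood at 31.6 and 31.5 CPM against 31.9 and 30.2 CPM, a log2 fold change of -0.02 (SE 0.126). All 4 libraries of each gene lay close together. Both signs turned to positive with the length trend removed, at 0.11 and 0.15.

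Col4a4 (chr1:82448419-82587034), a chain of the mature kidney filter, had the smallest p-value of all chains on very few reads. It held 52 and 51 counts in the untreated libraries and 13 and 4 counts under CCCP, which is 1.04 and 1.36 CPM against 0.268 and 0.110 CPM. Both CCCP libraries lay below both untreated ones, with a log2 fold change of -2.61 (SE 0.612), an unadjusted p of 0.00506 and an adjusted p of 0.206 in edgeR. The DESeq2 adjusted p was 0.0519, and in the edgeR fit without a filter on low counts it was 0.00338. Col4a3, which shares the start region with Col4a4, was singled out for that reason after its values were seen. It held 32 and 27 counts untreated and 20 and 10 under CCCP. The groups again did not overlap, as in 24.8% of all genes on the lower side. The log2 fold change of Col4a3 was -0.97 (SE 0.545, edgeR adjusted p = 0.451). The ratio of Col4a3 to Col4a4 per kilobase was 0.828 and 0.712 untreated and 2.07 and 3.36 under CCCP.

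Ratios of partner chains, read per kilobase within a library, do not depend on library scaling. The ratio of Col4a1 to Col4a2 lay between 1.02 and 1.06 in the 4 libraries, and that of Col4a5 to Col4a6 between 2.98 and 3.15. The ratio of Col1a1 to Col1a2, whose products combine in type I collagen, was 0.523 and 0.723 in untreated replicates 1 and 2 and 0.457 and 0.683 under CCCP. It was thus lower in replicate 1 of each group. The ratio of Col6a1 to Col6a2 showed the same order, at 1.61 and 1.88 untreated and 1.52 and 1.68 under CCCP. Col9a2 to Col9a1, chains of the type IX collagen that coats cartilage fibrils, ran the other way, at 1.15 and 0.540 untreated and 1.05 and 0.525 under CCCP. The type I, VI and IX ratios split by replicate number and overlapped between groups. The partner pairs were chosen after the values were seen.

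The highest of the other chains were Col18a1 and Col26a1, and both stood higher in the CCCP libraries. Col18a1 (chr10:77052178-77166530) encodes a basement membrane proteoglycan whose end fragment is endostatin. It stood at 330 and 412 CPM untreated and at 447 and 465 CPM under CCCP, a log2 fold change of 0.30 (SE 0.152, edgeR adjusted p = 0.414). Col26a1 (chr5:136741759-136883376), a short chain first described in testis and ovary, stood at 207 and 179 CPM untreated and at 255 and 245 CPM under CCCP. Its log2 fold change was 0.37 (SE 0.128), with an unadjusted p of 0.0268 and an adjusted p of 0.294 in edgeR. Col23a1 (chr11:51289679-51583925), a transmembrane collagen, stood at 88.7 and 98.8 CPM against 99.2 and 110.1 CPM, a log2 fold change of 0.16 (SE 0.123). In these 3 genes, and in Col20a1 (18.0 and 13.7 against 20.1 and 21.8 CPM), both CCCP libraries lay above both untreated ones. Such non-overlap on the higher side was seen in 4 of 43 chains, beside 24.0% of all genes. On the lower side it was also seen in 4 chains (Col4a3, Col4a4, Col5a2 and Col19a1), beside 24.8% of all genes. Col20a1 and Col19a1 are named for the non-overlap alone, after their values were seen.

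The 6 chains of type VI collagen all had a log2 fold change below 0, with a median of -0.63. With the length trend removed the median was -0.41, again with all 6 below 0. Col6a4 and Col6a5 rest on few reads, at most 44 and 30 counts in a library. Col6a1 (chr10:76708792-76726044) stood at 182 and 81.8 CPM untreated and at 124 and 71.2 CPM under CCCP, a log2 fold change of -0.43 (SE 0.412). Its neighbour Col6a2 (chr10:76595756-76623630) stood at 170 and 65.8 CPM against 124 and 64.3 CPM, a log2 fold change of -0.33 (SE 0.481). Col6a3 (chr1:90766860-90844001), the large chain that completes the type VI molecule with these, stood at 302 and 130 CPM against 177 and 100.0 CPM, a log2 fold change of -0.64 (SE 0.429, edgeR adjusted p = 0.512). In each of the 3 genes replicate 1 was above replicate 2 in both groups, CCCP lay below untreated within each number, and the groups overlapped. Col6a3 had an adjusted p of 0.00185 in the edgeR fit without a filter on low counts, which called 3.43% of all genes. Its own counts, from 3629 to 15130, were far above the filter, and its log2 fold change in that fit was -0.63. Without untreated replicate 1 the signs of all 3 turned, to 0.27, 0.53 and 0.10. That fit sets untreated replicate 2 alone against both CCCP replicates. Within replicate number 2 the log2 ratios of CCCP to untreated were -0.20, -0.03 and -0.38. Col6a6, the farthest of the set and singled out after its values were seen, stood at 12.8 CPM in untreated replicate 1 and at 3.71, 4.41 and 3.55 CPM in the other libraries.

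Read by replicate number, the collagen chains were higher in replicate 1 than in replicate 2, in either group. Replicate 1 was above replicate 2 in both groups in 33 of 43 chains tested, beside 31.0% of all genes, and below in both groups in 3 chains (Col18a1, Col22a1 and Col23a1), beside 33.2%. The gap exceeded 1.5-fold in both groups in 11 chains, beside 5.95% of all genes, and the reverse held in 0 chains, beside 2.36%. The median log2 ratio of replicate 1 to 2, with 0.05 CPM added, was 0.69 untreated and 0.31 under CCCP, against -0.001 and -0.01 over all genes. Across the 43 chains the ratio in one group and in the other had a Pearson's r of 0.48 and a Spearman's rho of 0.50, beside 0.36 for both over all 19837 genes. These points share 4 libraries, so the values describe them and carry no p.

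By class, replicate 1 was above replicate 2 in both groups in 9 of 11 fibrillar chains, in 4 of 6 type IV chains and in 20 of 26 other chains. All 6 type VI chains did so, and 5 of them by over 1.5-fold in both groups. Among these 5, Col6a4 and Col6a5 rest on few reads. Col6a4 held 44 and 19 counts untreated and 30 and 10 under CCCP, and Col6a5 held 30 and 6 against 14 and 4. None of the type IV chains reached 1.5-fold in both groups, while 1 fibrillar chain did, Col1a2, with ratios of 2.23 untreated and 1.62 under CCCP. Among the widest gaps were Col9a3 and Col9a2 of type IX collagen, singled out after their values were seen. Col9a3 stood at 26.3 and 8.10 CPM untreated and at 18.4 and 8.79 CPM under CCCP. Col9a2 stood at 44.4 and 16.5 CPM untreated and at 34.5 and 18.3 CPM under CCCP. In both genes each replicate 1 library lay above each replicate 2 library, whichever its group. Col12a1, a collagen of dense connective tissue surfaces, stood at 215 CPM in untreated replicate 1, at 124 CPM in CCCP replicate 1 and at 72.1 and 90.3 CPM in the untreated and CCCP replicates 2.

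**Figure D3:**
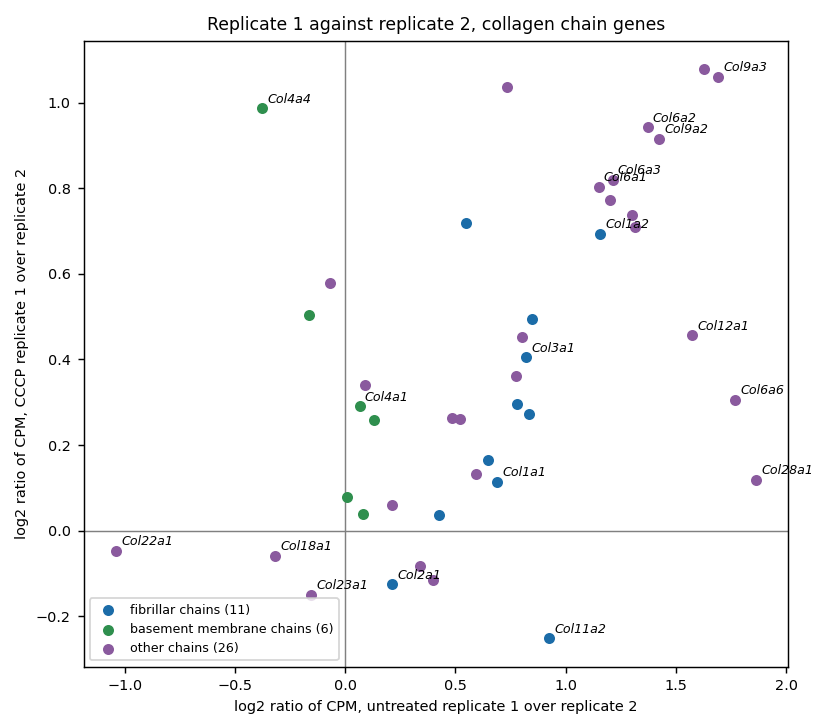
Log2 ratio of replicate 1 to replicate 2 in the untreated libraries (x axis) and in the CCCP libraries (y axis) for 43 collagen chains, coloured by class. The upper right field, higher in replicate 1 in both groups, holds 33 chains, and the lower left field holds 3.

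Markers of some tissues of the explant moved with the replicate number as well. The 8 mesonephros and gonad markers summed to 284 and 261 CPM in replicates 1 of the untreated and CCCP groups and to 181 and 178 CPM in replicates 2, and all 8 were higher in replicate 1 in both groups. The 8 bone markers summed to 70.3 and 63.0 CPM against 33.1 and 28.1 CPM, but of the 6 tested only 3 were higher in replicate 1 in both groups and 1 was lower in both. Spp1 alone, also known as osteopontin, stood at 36.4 and 40.8 CPM in replicates 1 and at 13.2 and 15.2 CPM in replicates 2. The 6 epithelial markers ran the other way, at 192 and 270 CPM in replicates 1 and 291 and 386 CPM in replicates 2, with all 6 higher in replicate 2 in both groups. The mesenchymal sum was 914 and 894 CPM in replicates 1 and 782 and 847 CPM in replicates 2. Of its 10 markers only 4 were higher in replicate 1 in both groups, and 3 were lower in both. No listed mesenchymal, mesonephros and gonad or epithelial marker was at 0 in any library, while the bone marker Ibsp held 0, 0, 12 and 0 counts (untreated replicates 1 and 2, then CCCP) and Bglap held at most 4. The part of this in the collagen values was not tested. Replicate 1 was also the deeper library of each group, so that replicate number and depth cannot be told apart.

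Within replicate number 1, CCCP was below untreated in 33 of 43 chains (49.8% of all genes), with a median log2 ratio of -0.41, and in 11 of 11 fibrillar chains. Within number 2 it was below in 25 (49.9% of all genes) and above in 18 (50.1%), with a median of -0.03, and the fibrillar chains split into 4 below and 7 above. Below untreated within both numbers were 20 chains, beside 34.9% of all genes, and above within both were 5, beside 35.2%. The 20 included all 6 type VI chains and 4 fibrillar ones, though within number 2 Col6a2 and Col6a6 had log2 ratios of only -0.03 and -0.06. For Col3a1 the log2 ratio of CCCP to untreated was -0.22 within number 1 and 0.19 within number 2. For Col1a2 it was -0.24 and 0.22, and for Col1a1 it was -0.44 and 0.14. For Col6a3 it was -0.77 and -0.38. For Col26a1 it was 0.30 and 0.45, and for Col18a1 it was 0.44 and 0.18. The main fibrillar chains thus changed side with the replicate number, while Col6a3, Col18a1 and Col26a1 did not. The 11 liver markers moved with the group, at a sum of 1704 and 975 CPM untreated and of 53.3 and 107 CPM under CCCP, and their part in the collagen values was not tested.

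Collagen mRNAs are long and rich in guanine and cytosine, and both properties moved with the fold change over all genes. Exon lengths of the chains tested ran from 2746 bases (Col9a2) to 14138 bases (Col12a1), with a median of 6615 against 3357 for all genes tested, and 38 of 43 lay in the longest 3 of 10 equal bins of length. Spearman's rho of log2 fold change with length was -0.31 over the chains and -0.36 over all genes. Set beside genes of the same bin of length, 25 of 43 chains lay below the median of their bin. In bin 8 the 13 chains had a median of -0.08 against -0.10 for all its genes. In bin 9 the 18 chains had a median of -0.23 against -0.20. In bin 10, the longest, the 7 chains had a median of -0.64 against -0.36. After removal of the length trend the chains' median was -0.06, and 19 were above 0 and 24 below.

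GC content gave the opposite picture. Its median was 55.2% for the chains and 49.9% for all genes, and rho with the fold change was 0.21 over the chains and 0.37 over all genes. Against genes of the same of 10 bins of GC content, 37 of 43 chains lay below the median. With the GC trend removed the chains' median was -0.34, and 6 were above 0 and 37 below.

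**Figure D4:**
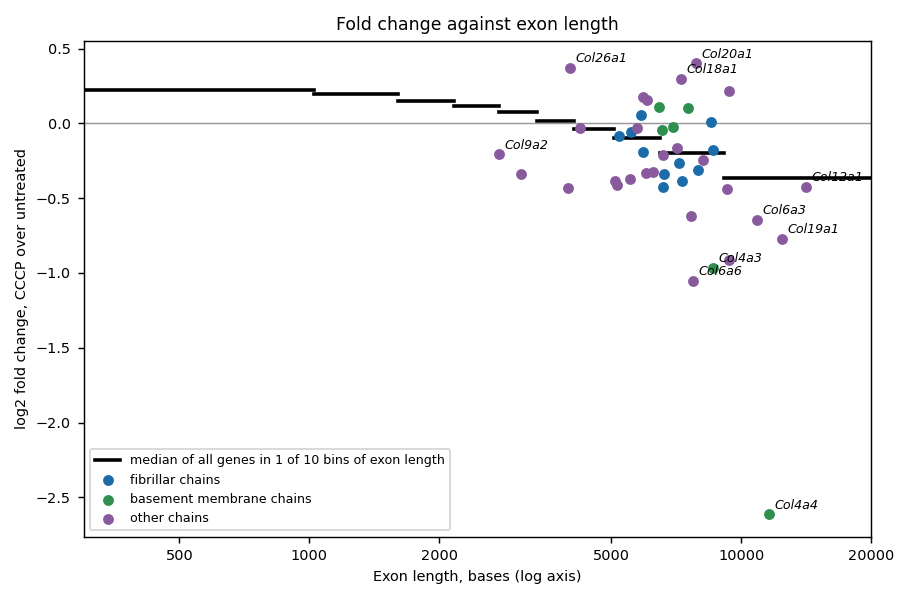
Log2 fold change, CCCP over untreated, against exon length (log axis) for 43 collagen chains, with the median of all genes in each of 10 equal bins of length as a black bar. The bars step down from 0.22 in the shortest bin to -0.36 in the longest, and 38 chains lie in the longest 3 bins.

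The genes that fold, modify and export collagen leaned to the other side. Of 22 modifying enzymes and chaperones, 15 had a log2 fold change above 0 and 7 below, with a median of 0.19, and 0 passed in edgeR while Serpinh1 and Plod2 passed in DESeq2 (0% and 3.32% of all genes). At an unadjusted p under 0.05 there were 6 on the higher side and 2 on the lower, beside 5.45% and 9.16% of all genes. Serpinh1, the collagen-specific chaperone HSP47, stood at 1087 and 1116 CPM untreated and at 1577 and 1515 CPM under CCCP. Its log2 fold change was 0.49 (SE 0.142), with an adjusted p of 0.251 in edgeR and 0.0176 in DESeq2. Ppib, a prolyl isomerase that works on folding collagen, stood at 84.0 and 84.4 CPM against 120 and 112 CPM, a log2 fold change of 0.46 (SE 0.111, edgeR adjusted p = 0.206). Plod2, the lysyl hydroxylase of the collagen ends, stood at 135 and 124 CPM against 89.1 and 85.8 CPM, a log2 fold change of -0.57 (SE 0.115), with an adjusted p of 0.175 in edgeR and 0.0143 in DESeq2. In these 3 genes, named for the smallest p-values of the list, the untreated values lay close to each other and apart from the CCCP values. Both groups were apart in 11 of the 22 on the higher side (24.0% of all genes) and in 5 on the lower (24.8%).

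P4hb and P4ha1, subunits of prolyl 4-hydroxylase, lay on opposite sides and were singled out for that after their values were seen. P4hb stood at 615 and 635 CPM untreated and 805 and 820 CPM under CCCP. P4ha1 stood at 145 and 147 CPM untreated and 121 and 101 CPM under CCCP. The log2 fold changes were 0.38 (SE 0.131) and -0.40 (SE 0.133), with edgeR adjusted p-values of 0.295 and 0.284. P4hb also serves as a general disulphide isomerase of the endoplasmic reticulum. Among the 22, replicate 1 was above replicate 2 in both groups in 10 genes, and the gap exceeded 1.5-fold in both groups in 0, beside the 33 and 11 of 43 for the chains.

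Propeptide processing and crosslinking enzymes had a median of -0.17, with 4 of 13 above 0 and 9 below, and the median was 0.0072 with the length trend removed and 0.10 without untreated replicate 1. Lox, the lysyl oxidase that starts crosslinks, stood at 60.9 and 40.8 CPM untreated and at 28.5 and 21.6 CPM under CCCP. Its groups did not overlap (24.8% of all genes on the lower side). The log2 fold change was -1.02 (SE 0.235), with an adjusted p of 0.204 in edgeR and 0.00582 in DESeq2. Pcolce, which speeds the removal of the procollagen tail, stood at 53.5 and 56.3 CPM against 70.4 and 80.7 CPM, a log2 fold change of 0.46 (SE 0.124, edgeR adjusted p = 0.232). Loxl1, a lysyl oxidase better known for elastin, stood at 31.2 and 21.8 CPM against 34.1 and 35.7 CPM, a log2 fold change of 0.40 (SE 0.194). In edgeR 0 of the 13 passed (0% of all genes), and 1 on each side had an unadjusted p under 0.05 (5.45% of all genes higher and 9.16% lower). In DESeq2 Lox alone passed (3.32% of all genes).

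**Figure D5:**
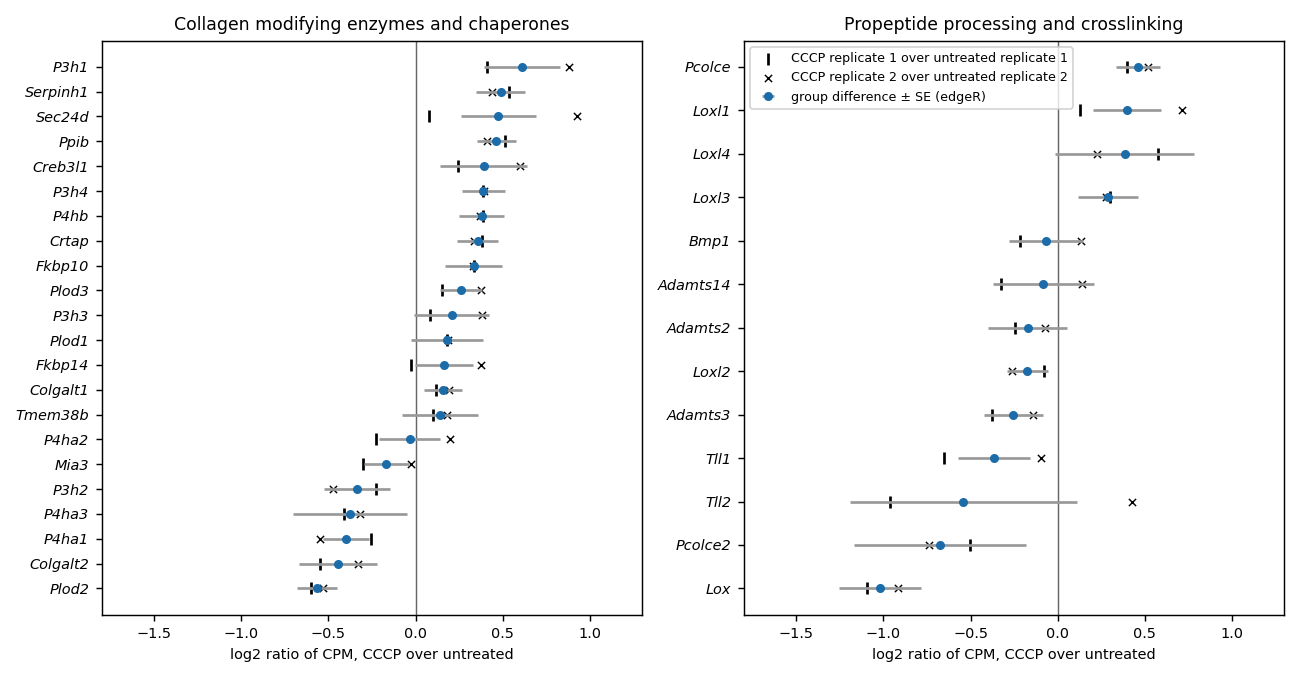
Log2 ratio of CPM, CCCP over untreated, for the 22 collagen modifying enzymes and chaperones (left) and the 13 processing and crosslinking genes (right): dot and line are the edgeR estimate and its SE, the bar is within replicate number 1 and the cross within number 2. Serpinh1, Ppib and Plod2 have bar and cross close to the dot, and Lox is lowest at -1.02.

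Genes of collagen degradation and its inhibitors had 7 of 12 log2 fold changes above 0 and a median of 0.10, which was -0.02 with the length trend removed (6 above and 6 below). The 12 include the metalloproteinase inhibitors Timp1, Timp2 and Timp3, at log2 fold changes of 0.16, 0.14 and -0.18, so the count does not describe degrading enzymes alone. Mmp16, a membrane-bound metalloproteinase, stood at 29.0 and 22.6 CPM untreated and 16.3 and 16.2 CPM under CCCP, a log2 fold change of -0.67 (SE 0.179, edgeR adjusted p = 0.231). Mrc2, the receptor that takes up collagen fragments, stood at 190 and 153 CPM against 223 and 199 CPM, a log2 fold change of 0.30 (SE 0.148). Mmp8, the neutrophil collagenase, stood at 0.419 and 0.240 CPM against 0.0412 and 0.110 CPM, with the CCCP values below or near the floor. The groups of each of these 3 genes did not overlap, as in 24.0% of all genes on the higher side and 24.8% on the lower. In edgeR and DESeq2 0 of the 12 passed (0% and 3.32% of all genes), and 2 on the lower side had an unadjusted p under 0.05 in edgeR (9.16% of all genes).

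Collagen receptors had 2 of 9 log2 fold changes above 0 and a median of -0.18. The median was -0.10 with the length trend removed (3 above and 6 below) and -0.04 without untreated replicate 1 (4 above and 5 below). Itga1 and Itga2, the integrin subunits that bind collagen with Itgb1, stood at 13.8 and 15.7 CPM and at 14.3 and 14.6 CPM untreated, and at 9.76 and 9.04 CPM and 10.7 and 9.75 CPM under CCCP. Their log2 fold changes were -0.65 (SE 0.188) and -0.49 (SE 0.180), with edgeR adjusted p-values of 0.251 and 0.309. Gp6, the platelet collagen receptor, stood at 2.0 and 1.02 CPM against 0.247 and 0.992 CPM. In edgeR and DESeq2 0 of the 9 receptors passed (0% and 3.32% of all genes), and 2 on the lower side had an unadjusted p under 0.05 in edgeR (9.16% of all genes).

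Of 20 matrix proteins that bind collagen, 3 had a log2 fold change above 0 and 17 below, with a median of -0.10. With the length trend removed 11 were above 0 and 9 below (median 0.011), and without untreated replicate 1 they split into 10 and 10 (median 0.017). In edgeR and DESeq2 0 of the 20 passed, beside 0% and 3.32% of all genes. At an unadjusted p under 0.05 in edgeR there were 1 on the higher side and 2 on the lower, beside 5.45% and 9.16% of all genes. The small proteoglycans of fibril surfaces, Lum and Dcn, lay on the lower side. Lum stood at 72.6 and 75.8 CPM untreated and at 55.7 and 52.1 CPM under CCCP, a log2 fold change of -0.46 (SE 0.113, edgeR adjusted p = 0.213). Dcn stood at 34.2 and 33.1 CPM against 24.1 and 20.1 CPM, a log2 fold change of -0.60 (SE 0.150, edgeR adjusted p = 0.218). Sparc, a collagen-binding protein of bone and basement membranes, stood at 463 and 463 CPM against 597 and 568 CPM, a log2 fold change of 0.33 (SE 0.126, edgeR adjusted p = 0.322). In all 3, named for the smallest p-values of the list, the untreated libraries lay close together and apart from both CCCP libraries. Both groups were apart in 2 of the 20 on the higher side (24.0% of all genes) and in 5 on the lower (24.8%).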

How the data were processed

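The files deposited by the authors hold counts of reads per gene, with exon length. Per the file headers they were made with featureCounts 2.0.3 on exons of the mm10 RefSeq annotation, with no strand option and with the reads of a pair counted singly. The submitters' processing notes list FastQC, HISAT2, SAMtools and Subread. The submitters' label in 1 column header (UM1) differs from the sample title (UN), so the file record decided the sample. Col11a2, Col16a1 and Col4a6 are annotated on more than 1 contig, so their exon length on the main chromosome was used. What became of reads shared between contigs is not given in the sources used here. Exons of 17 chains overlap another gene, 16 of them on the other strand, so their counts are uncertain by the shared reads.

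Counts were tested with edgeR 4.0.16 in R 4.3.3 (glmQLFit and glmQLFTest, two-sided, TMM, filterByExpr with minimum count 10 and minimum total 15), with group as the sole term and Benjamini-Hochberg adjustment over 19837 genes at 0.05. The SE was derived from the log2 fold change and the root of F. DESeq2 1.42.0 was the other tool. An exact permutation test of 2 against 2 libraries cannot go below a p of 0.333. The fit was also run on simulated counts that gave every gene the same dispersion. That run does not measure how well the fit calls changes in these libraries. Trends on length or GC content (span 0.3, GC known for 90.4% of genes) were removed by an offset in alternatives.

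Members, classes, lists and alternatives were chosen with earlier results of these data known. Named with values in every library were the 4 fibrillar, 4 type IV and 6 other chains highest per kilobase, any chain with an unadjusted p under 0.05, and the 3 smallest p-values of each pathway list. The fits with a GC trend and replicate block together, and with genes on 1 contig alone, were added after seeing the data. All 4 libraries were used.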

Additional observations from a re-analysis of the deposited data

How the results depend on the processing

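Genes called at an adjusted p under 0.05 numbered 0 in the edgeR fit with group alone, 594 in DESeq2, 1107 without a filter on low counts, and 1 to 34 when leaving out 1 library. Collagen chains called numbered 0, 0, 3 (Col4a4, Col6a3 and Col6a6) and 0. Labels do not say what a replicate number marks. Deviations of same-numbered libraries had a correlation of 0.36 over 19837 genes, with 2 pairs. With the replicate block 2118 genes (10.7%) were called and 3 chains (Col26a1, Col4a4 and Col6a3). The median log2 fold change of all chains with the block was -0.22, with 33 below 0 and 10 above. Col6a1, Col6a2 and Col6a3 had -0.38, -0.25 and -0.58 with it. Adding to the block a removal of the length trend gave 1561 genes (7.87%) and 5 chains (Col18a1, Col20a1, Col26a1, Col4a4 and Col6a1), and adding removal of the GC trend gave 657 genes (3.66%) and 3 chains (Col4a4, Col6a1 and Col6a3). The block also called 6 of 22 modifying enzymes and chaperones (Serpinh1, Ppib, P3h1 and P4hb higher, Plod2 and P4ha1 lower), 2 of 13 processing and crosslinking genes (Pcolce higher, Lox lower), and on the lower side Mmp16, Itga1, Lum, Dcn and Postn. The cause was not tested.

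The median of the type IV chains was -0.092 with library size scaling, 0.13 with the length trend removed (0.13 with the block too), and -0.13 with the GC trend removed (-0.13 with the block too). That of processing and crosslinking genes was -0.23, 0.0072 (-0.0064) and -0.26 (-0.26) in the same order. Leaving out 1 library gave -0.53 to 0.16 for all chains, -0.52 to 0.20 for fibrillar, -0.065 to -0.0036 for type IV and -0.71 to 0.16 for other chains. It gave 0.10 to 0.36 for modifying enzymes and chaperones, -0.18 to 0.10 for processing and crosslinking, -0.028 to 0.22 for degradation, -0.39 to -0.038 for receptors and -0.27 to 0.017 for binding matrix proteins. On genes of 1 contig alone the median of all chains was -0.23.

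Signs of single chains turned with the length trend removed, without and with the block, for Col3a1 (0.056 and 0.090), Col1a2 (0.017 and 0.078), Col4a5 (0.11 and 0.11) and Col4a6 (0.15 and 0.15). With the GC trend removed, without and with the block, they turned for Col5a1 (-0.15 and -0.10), Col4a1 (-0.058 and -0.064) and Col4a2 (-0.065 and -0.068). Col5a1 also turned with library size scaling (-0.051), upper-quartile scaling (-0.0100) and a mean CPM of at least 1 (-0.015). Leaving out 1 library turned Col3a1 (-0.39 to 0.42), Col1a2 (-0.53 to 0.62), Col1a1 (-0.47 to 0.20), Col5a1 (-0.33 to 0.50), Col4a1 (-0.050 to 0.24), Col4a2 (-0.025 to 0.23), Col4a5 (-0.069 to 0.0019), Col4a6 (-0.062 to 0.017), Col6a1 (-0.89 to 0.27), Col6a2 (-0.88 to 0.53) and Col6a3 (-1.11 to 0.10).

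With 2 libraries a group and a biological coefficient of variation of 21.9%, differences of the size seen in most chains were not separable from the spread between libraries. Chains on few reads, among them Col4a3, Col4a4, Col6a4, Col6a5 and Col28a1, carry large counting error, which intervals from counts alone would understate.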

Other observations

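Neighbouring chain genes were set side by side as values. Col4a1 and Col4a2 overlap by 85 bases at their start on chromosome 8, Col4a4 and Col4a3 by 114 bases on chromosome 1, and Col4a6 and Col4a5 lie 1274 bases apart on chromosome X, each pair read outwards. The log2 fold changes within these pairs were 0.10 and 0.11, -2.61 and -0.97, and -0.02 and -0.05. Col3a1 and Col5a2 lie 24624 bases apart on chromosome 1 and had log2 fold changes of -0.06 and -0.34. Col6a2 and Col6a1 lie 85161 bases apart on chromosome 10 and had -0.33 and -0.43. The ratios of replicate 1 to replicate 2 for Col6a2 were 2.59 untreated and 1.92 under CCCP, and for Col6a1 they were 2.22 and 1.75. For Col3a1 these ratios were 1.76 and 1.33, and for Col5a2 they were 1.34 and 1.03.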
